A study of Homo sapiens with 10 samples.

Results

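The rows examined here are the genes of the histone lysine methyltransferase and demethylase families, chosen by symbol alone: every row whose gene symbol begins with KMT, KDM or SETD followed by a digit, with KDM5C, KDM5D and KDM6A left out. The rule found 37 of the 28380 rows in the count table, of which 32 are protein coding and 5 are antisense, divergent, intronic or pseudogene entries. RPE-1, an immortalized human retinal pigment epithelial cell line, was treated for 4 h with DMSO, the vehicle, or with sulforaphane (SFN), an isothiocyanate from cruciferous vegetables. Each treatment had 5 replicates, and RNA was measured by 3′-end sequencing (Lexogen QuantSeq), which reads near the end of each transcript. The study asked which cellular responses SFN sets off within hours, and the comparison here is SFN against DMSO for these genes. The study's methods give a number of cells per replicate and a model that allowed for repeated measures, without stating which libraries are linked. Here the libraries were tested as unlinked, and p-values measure the spread between them.

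Methyltransferases of these families ("writers") move methyl groups from S-adenosylmethionine to lysine side chains, most of them through a SET domain. The demethylases ("erasers") fall into the flavin-dependent amine oxidases KDM1A and KDM1B and the larger JmjC class, dioxygenases that need iron, oxygen and 2-oxoglutarate, so both kinds of enzyme draw on metabolites. Methylation of H3K4 is known from active promoters and enhancers and that of H3K36 from transcribed gene bodies, whereas methylated H3K9, H3K27 and H4K20 are known mainly from repressed or compacted chromatin.

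Levels are given as CPM, the field's count unit for libraries brought to a common size, here after scaling by the trimmed mean of M-values (TMM). A CPM is a share of a bulk library, so fewer cells and less RNA per cell cannot be told apart. The libraries held 15689294 to 20666692 counts for DMSO and 12375860 to 17308706 for SFN. DMSO replicate 1 stood apart from the rest: its mean Spearman correlation with the rest of its group was 0.935, against 0.979 to 0.982 for the other DMSO libraries. Its deviations from the mean of all libraries fell by 0.271 on the log2 scale for each doubling of transcript length, whereas the other DMSO libraries had slopes of 0.0872 to 0.148 and the SFN libraries slopes from -0.183 (replicate 2) to 0.109 (replicate 5). The genes described here have long transcripts, with a median of 6123.5 bases over the 32 protein-coding genes against 3173 over all genes tested. In DMSO replicate 1 their level relative to the mean of the other DMSO libraries had a median of -0.58 on the log2 scale, with 25 below and 7 above, against a median of -0.054 over all genes tested. The results called are therefore given with and without it, and its part in them was not tested beyond that. As a check of the labelled cells, 5 of 12 retinal pigment epithelium markers in the table (KRT8, KRT18, MITF, OTX2 and BEST1) were at 1 CPM or more in every library. The other 7 were not: RPE65, RLBP1, TYRP1 and SERPINF1 did not exceed 4 counts in any library, LRAT stayed under 1 CPM, and PMEL and MERTK were above that level in some libraries.

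More of these genes were lower than higher under SFN. Of the 37, 34 had enough counts to be tested, and at an adjusted p under 0.05 (from edgeR's quasi-likelihood F-test, with Benjamini-Hochberg adjustment across the 13378 genes tested, as for every adjusted p given here) 3 were higher and 9 lower in SFN. That is 8.82% and 26.5% of the 34, where 9.07% of all genes tested were higher and 13.9% lower, so the share that rose was near the background and the share that fell was above it. Their median log2 fold change was -0.45, with 26 negative and 8 positive, and the median over all genes tested was -0.028. Without DMSO replicate 1, 5 were higher and 19 lower, or 14.7% and 55.9% of the 34, against 22.5% and 23.5% of all 13566 genes then tested, and the median became -0.52. All 12 genes called with every library kept their direction and their call. With all libraries, the SFN and DMSO values did not overlap for 3 genes that were higher and 7 that were lower, where 8.78% and 11.1% of all genes tested were separated in these directions. Past a 2-fold difference were a rise of KDM7A, which removes methyl groups from H3K9 and H3K27, and falls of 4 genes. These were KDM8, a JmjC oxygenase first described as an H3K36 demethylase, SETD6, which methylates the NF-κB subunit RELA, KDM2B, an H3K36 demethylase that brings a Polycomb complex to CpG islands, and KMT2E, whose fall was under 2-fold without DMSO replicate 1. Scaling by library size alone moved the split over all genes tested from 1214 higher and 1862 lower to 819 and 2163, and that of the 34 genes from 3 and 9 to 2 and 9.

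**Figure D1:**
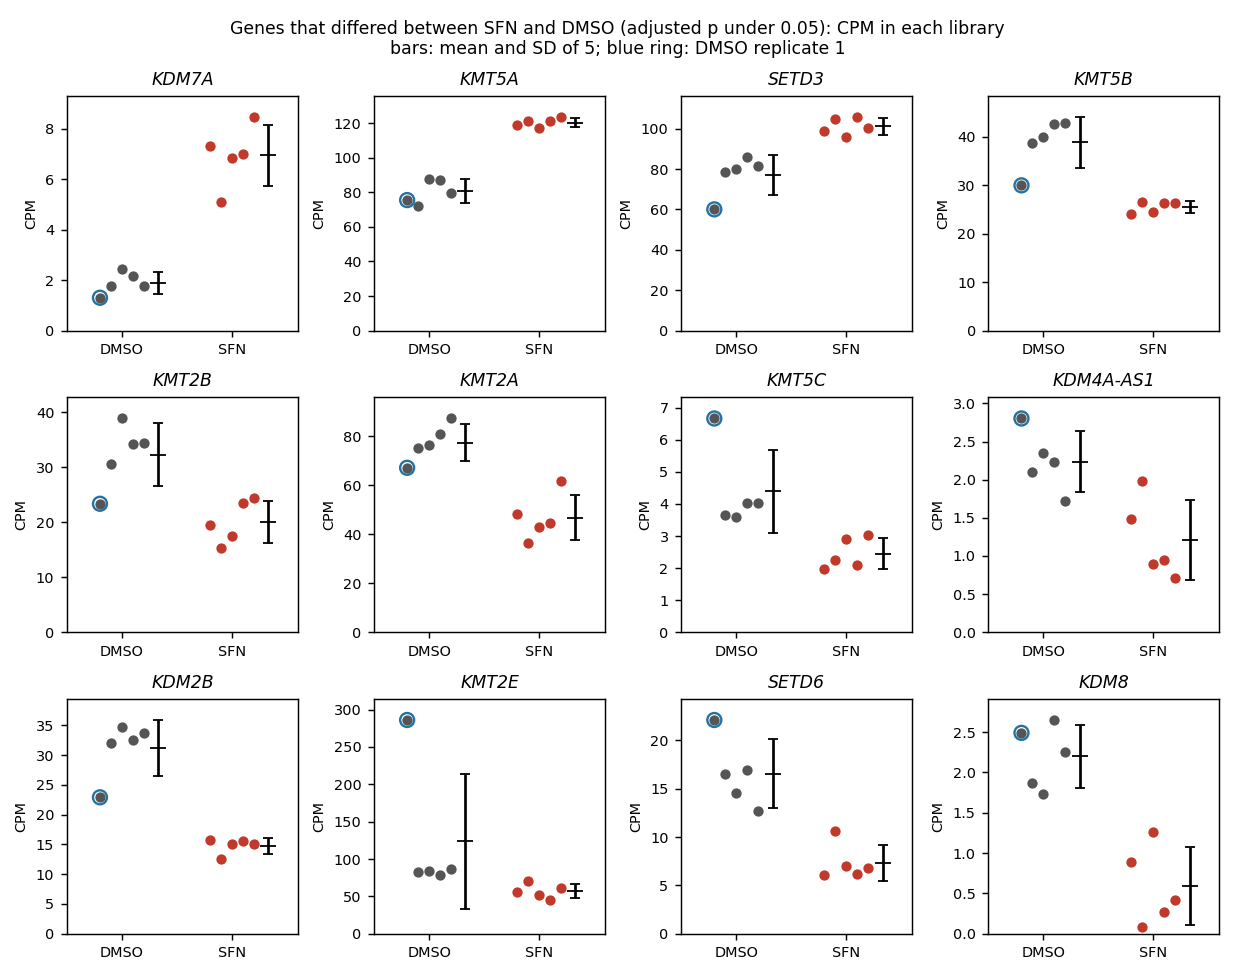
CPM of the 12 genes called with all libraries, one panel per gene, with each point a library, the bar the mean ± SD of 5, and a blue ring around DMSO replicate 1. The 5 SFN libraries lie above every DMSO library for KDM7A, KMT5A and SETD3, and DMSO replicate 1 is far above the other DMSO libraries for KMT2E (286 CPM against 78.8 to 86.3).

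Promoter sequence is shown for the gene with the largest rise and for 2 of those with the largest falls, since a stretch around the start site is where shared short motifs would be read. The windows come from RefSeq on GRCh38.p14, cover 250 bases before to 50 after the start site, are written 5′ to 3′ on the gene's strand, and carry in capitals the letters matched by a motif search on both strands. KDM7A lies on the minus strand with its window at chr7:140176934-140177233, KDM8 on the plus strand at chr16:27203276-27203575 and SETD6 on the plus strand at chr16:58515267-58515566.
KDM7A: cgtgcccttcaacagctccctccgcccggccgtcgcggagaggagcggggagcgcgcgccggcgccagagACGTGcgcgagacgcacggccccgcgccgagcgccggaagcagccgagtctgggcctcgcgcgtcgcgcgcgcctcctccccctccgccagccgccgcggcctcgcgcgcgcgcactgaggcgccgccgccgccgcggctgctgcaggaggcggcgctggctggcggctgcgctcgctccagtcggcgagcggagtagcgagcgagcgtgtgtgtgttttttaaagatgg
KDM8: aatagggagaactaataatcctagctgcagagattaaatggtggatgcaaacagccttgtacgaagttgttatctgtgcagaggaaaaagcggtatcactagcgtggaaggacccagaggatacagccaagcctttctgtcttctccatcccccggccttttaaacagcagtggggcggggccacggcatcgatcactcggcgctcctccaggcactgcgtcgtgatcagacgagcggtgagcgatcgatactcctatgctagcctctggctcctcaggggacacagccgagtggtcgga
SETD6: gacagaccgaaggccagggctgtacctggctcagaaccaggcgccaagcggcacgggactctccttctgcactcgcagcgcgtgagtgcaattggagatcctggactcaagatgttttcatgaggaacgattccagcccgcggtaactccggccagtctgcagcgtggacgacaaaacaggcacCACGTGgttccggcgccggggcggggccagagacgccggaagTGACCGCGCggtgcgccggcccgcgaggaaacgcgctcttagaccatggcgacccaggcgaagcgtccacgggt

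The KDM7A window held 1 match to the hypoxia-response core ACGTG, the SETD6 window held the E-box CACGTG (which contains ACGTG on both strands) and the antioxidant-response core TGACNNNGC, and the KDM8 window held none of the letters searched. RefSeq gave at least 1 window for 34 of the 37 genes, 46 windows in all. ACGTG was found for 9 of those 34 genes (19.6% of their windows against 21.4% of all 35116 windows), the antioxidant-response core for 3 (6.52% against 13.4%) and the E-box for 4 (8.70% against 7.26%). The windows of KDM7A and KDM7A-DT overlap and hold the same ACGTG site, which is counted for both. Neither the cyclic-AMP response element TGACGTCA nor the C/EBP-ATF element TGATGNAA was found in any of the 46, where 1.85% and 3.62% of all windows held them. These windows were rich in G and C, at a median of 69.2% against 58.7% over all windows. A match is a run of letters and was not tied to binding of any factor in these cells.

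The genes grouped as H3K4 methyltransferases, KMT2E among them, were 8, and all 8 had negative fold changes. With all libraries 3 were called lower, whereas without DMSO replicate 1 the number was 7. That is 37.5% and 87.5% of the group, beside 13.9% and 23.5% of all genes tested called lower in these fits. No gene of the group was called higher in either fit, and the group's median log2 fold change was -0.55 with that library and -0.63 without it. The group's transcripts are long, at 5991 to 20635 bases. With a trend with transcript length removed from all 10 libraries SETD7 was at 0.037, and no such fit was run without DMSO replicate 1. Over the 22 alternative settings the highest log2 fold changes of KMT2C and KMT2D were -0.13 and -0.028. Those of KMT2A, KMT2B, KMT2E, SETD1A and SETD1B were -0.55 to -0.38. KMT2A and KMT2B (MLL1 and MLL2 in the older naming), which together with menin act at promoters, both fell. KMT2A stood at 67.1, 75.2, 76.3, 81.1 and 87.3 CPM in DMSO replicates 1 to 5 and at 48.3, 36.6, 43, 44.4 and 61.7 CPM in SFN replicates 1 to 5. The groups did not overlap, and the log2 fold change was -0.73 ± 0.14 (SE, adjusted p = 0.00298), or -0.78 ± 0.13 (SE, adjusted p = 2.27e-04) without DMSO replicate 1. In replicate order, KMT2B was at 23.4, 30.6, 38.9, 34.2 and 34.3 CPM under DMSO and 19.6, 15.4, 17.5, 23.4 and 24.4 CPM under SFN. These groups overlapped only through DMSO replicate 1, and the log2 fold change was -0.69 ± 0.17 (SE, adjusted p = 0.011) with that library and -0.79 ± 0.13 (SE, adjusted p = 3.41e-04) without it.

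KMT2E, a family member with little or no methyltransferase activity of its own, gave a result whose size rested on that library and whose call was kept in 14 of 22 alternative settings, lost among others when any 1 SFN library was left out. The KMT2E values were 286, 83, 83.5, 78.8 and 86.3 CPM in the DMSO libraries and 55.3, 70.1, 52.4, 44.7 and 61.9 CPM in the SFN libraries. Every SFN value was below every DMSO value, but DMSO replicate 1 exceeded the next DMSO library more than 3-fold. Its log2 fold change was -1.12 ± 0.35 (SE, adjusted p = 0.0404) with all libraries and -0.55 ± 0.11 (SE, adjusted p = 0.00117) without DMSO replicate 1, when the DMSO mean was 82.9 ± 3.10 CPM (SD, n = 4). KMT2E shares its locus on the opposite strand with SRPK2 and with KMT2E-AS1, and the strand setting of the counting is not given in the sources used here, so reads of these genes may not be separable. Both partners were also high in DMSO replicate 1: SRPK2, a kinase of splicing factors, stood at 134 CPM there against 52.4 to 55.1 in the other DMSO libraries and 43.6 to 57.2 under SFN, and KMT2E-AS1 at 5.36 CPM against 0.911 to 1.29. Neither was called (log2 fold change -0.49 ± 0.26 SE, adjusted p = 0.208 for SRPK2).

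SETD1A and SETD1B are the catalytic subunits of the complexes that place most promoter H3K4 trimethylation, and KMT2C and KMT2D act mainly at enhancers. None of these was called with all libraries in the main fit, and all were called lower when DMSO replicate 1 was left out. Over the 22 alternative settings, which include that fit, KMT2C was called in 4 and SETD1A, SETD1B and KMT2D in 3 each. Under DMSO SETD1A measured 15.6, 37.9, 43.7, 35.9 and 33 CPM, and under SFN 22.7, 16.9, 21.1, 25.8 and 29 CPM. SETD1B stood at 9.15, 22.1, 27.1, 23.4 and 21.6 CPM in DMSO replicates 1 to 5 and at 11, 14.1, 14.2, 13.4 and 16.7 CPM in SFN replicates 1 to 5. For this pair DMSO replicate 1 lay below every SFN library, and the other DMSO libraries all lay above every SFN library. SETD1A had a log2 fold change of -0.52 ± 0.24 (SE, adjusted p = 0.148), and -0.71 ± 0.14 (SE, adjusted p = 0.00108) without that library. SETD1B had -0.58 ± 0.24 (SE, adjusted p = 0.11), and -0.77 ± 0.12 (SE, adjusted p = 1.99e-04) without it.

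In replicate order, KMT2C was at 33.8, 41.6, 49.4, 48.4 and 56.7 CPM under DMSO and 34.9, 33.8, 27.7, 34.8 and 47.5 CPM under SFN. The KMT2D values were 24.7, 62.5, 67.5, 60.2 and 61.8 CPM in the DMSO libraries and 40.5, 29.4, 40.6, 45.1 and 69.2 CPM in the SFN libraries. For both genes SFN replicate 5 was the highest SFN library and lay within or above the DMSO range. KMT2C had a log2 fold change of -0.36 ± 0.17 (SE, adjusted p = 0.15), and -0.46 ± 0.14 (SE, adjusted p = 0.0139) without DMSO replicate 1. For KMT2D it was -0.30 ± 0.28 (SE, adjusted p = 0.495), and -0.49 ± 0.18 (SE, adjusted p = 0.0351) without it. SETD7, which adds a single methyl group to H3K4 and to many other proteins, was not called in either fit, at -0.10 ± 0.25 (SE, adjusted p = 0.818) with all libraries, with a 95% interval of -0.69 to 0.48, and -0.29 ± 0.15 (SE, adjusted p = 0.112) without DMSO replicate 1.

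**Figure D2:**
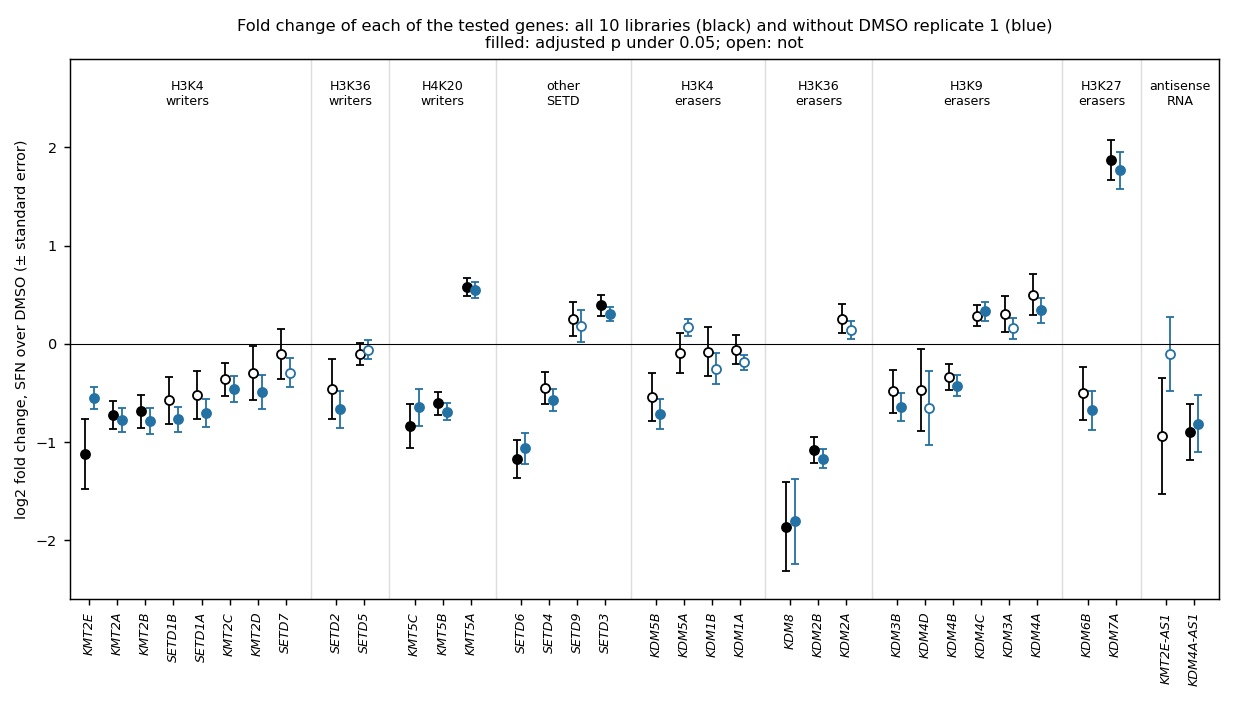
log2 fold change (SFN over DMSO) ± standard error of the 34 genes tested, grouped by the mark they write or erase, with all 10 libraries (black) and without DMSO replicate 1 (blue), and filled where the adjusted p was under 0.05. All 8 genes grouped as H3K4 writers, KMT2E among them, lie below 0, and 7 of their 8 blue points are filled.

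The 2 genes placed with H3K36 gave no call with all libraries. SETD2, the enzyme that trimethylates H3K36 along transcribed genes, was called lower without DMSO replicate 1. Under DMSO SETD2 measured 46.1, 126, 132, 145 and 145 CPM, and under SFN 83.2, 53.1, 78.4, 83.2 and 134 CPM. DMSO replicate 1 stood apart at the bottom of its group. Under SFN, replicate 5 was the highest library and replicate 2 the lowest. The log2 fold change was -0.46 ± 0.30 (SE, adjusted p = 0.32) with all libraries and -0.67 ± 0.19 (SE, adjusted p = 0.00956) without DMSO replicate 1. SETD5, a SET-domain protein whose activity on H3K36 is disputed, was called in neither fit (-0.10 ± 0.11 SE, adjusted p = 0.58, 95% interval -0.36 to 0.16, and -0.060 without DMSO replicate 1).

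The 3 H4K20 methyltransferases were all called with all libraries, in both directions, and the call of KMT5C was kept in 19 of 22 alternative settings. Of all genes tested, 9.07% were called higher and 13.9% lower in that fit. KMT5A (SET8), which places the first methyl group on H4K20 and is tied to the cell cycle, was higher. KMT5A stood at 75.5, 72.2, 87.9, 87.3 and 79.9 CPM in DMSO replicates 1 to 5 and at 119, 121, 117, 121 and 123 CPM in SFN replicates 1 to 5. The lowest SFN library was above the highest DMSO library, and the means were 80.5 ± 7.01 CPM for DMSO and 120.3 ± 2.51 CPM for SFN (SD, n = 5), a log2 fold change of 0.58 ± 0.092 (SE, adjusted p = 7.89e-04), or 0.55 ± 0.081 (SE, adjusted p = 1.01e-04) without DMSO replicate 1. A processed pseudogene, KMT5AP1, is a near copy of KMT5A and drew 2 to 10 counts per library, too few to be tested. Reads that match both copies cannot be assigned with certainty.

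KMT5B and KMT5C, which extend that mark to the di- and trimethyl forms, were lower. In replicate order, KMT5B was at 30, 38.8, 39.9, 42.6 and 42.7 CPM under DMSO and 24, 26.6, 24.4, 26.2 and 26.4 CPM under SFN. The KMT5C values were 6.66, 3.65, 3.58, 4.04 and 4.03 CPM in the DMSO libraries and 1.97, 2.24, 2.9, 2.09 and 3.04 CPM in the SFN libraries. Neither gene's groups overlapped, and DMSO replicate 1 was the lowest DMSO library for KMT5B and the highest for KMT5C. The log2 fold change was -0.60 ± 0.12 (SE, adjusted p = 0.00281) for KMT5B, and -0.69 ± 0.083 (SE, adjusted p = 1.72e-05) without that library. For KMT5C it was -0.84 ± 0.23 (SE, adjusted p = 0.0187), and -0.65 ± 0.18 (SE, adjusted p = 0.0109) without it.

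Of the 4 SETD proteins known mainly for substrates other than histones, SETD6 (chromosome 16, 58515479 to 58523842, plus strand, GRCh38) fell and SETD3 rose. Under DMSO SETD6 measured 22.1, 16.5, 14.5, 16.9 and 12.7 CPM, and under SFN 6.08, 10.6, 7.0, 6.21 and 6.85 CPM. The groups did not overlap, the means were 16.6 ± 3.54 CPM for DMSO and 7.35 ± 1.87 CPM for SFN (SD, n = 5), and the log2 fold change was -1.18 ± 0.19 (SE, adjusted p = 9.95e-04), or -1.06 ± 0.16 (SE, adjusted p = 1.20e-04) without DMSO replicate 1. The promoter window of SETD6 was the one among the 3 shown above with an E-box and an antioxidant-response core. Windows of KDM4C and KMT2D, neither called with all libraries, also held both, and a link to the fall was not tested. SETD6 overlaps CNOT1, a scaffold of the deadenylase complex on the opposite strand, which had a log2 fold change of 0.094 ± 0.31 (SE, adjusted p = 0.87). CNOT1 was at 58.0 to 222 CPM under DMSO and 135 to 273 CPM under SFN. Without known strand the reads of SETD6 and CNOT1 may not be separable.

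SETD3, the methyltransferase of a histidine in actin, was slightly higher under SFN. SETD3 stood at 60, 78.3, 80.2, 85.7 and 81.4 CPM in DMSO replicates 1 to 5 and at 98.8, 105, 95.7, 106 and 100.3 CPM in SFN replicates 1 to 5. Every SFN library exceeded every DMSO library, the means were 77.1 ± 9.94 CPM for DMSO and 101 ± 4.19 CPM for SFN (SD, n = 5), and the log2 fold change was 0.39 ± 0.11 (SE, adjusted p = 0.0228), or 0.31 ± 0.072 (SE, adjusted p = 0.00359) without DMSO replicate 1. Of the calls of a rise this was the least stable: it was kept in 17 of 22 alternative settings, and with scaling by library size alone the log2 fold change was 0.29 (adjusted p = 0.171).

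SETD4 was not called with all libraries in the main fit and was called lower without DMSO replicate 1. It was called in 5 of 22 alternative settings, that fit among them. In replicate order, SETD4 was at 10, 15.5, 15.8, 16.7 and 17.3 CPM under DMSO and 10, 9.32, 12.1, 11.3 and 12.4 CPM under SFN. The SFN values lay below those of DMSO replicates 2 to 5 and on both sides of DMSO replicate 1, with log2 fold changes of -0.45 ± 0.16 (SE, adjusted p = 0.062) and -0.57 ± 0.11 (SE, adjusted p = 0.00106) in the 2 fits. SETD9 was not called (0.25 ± 0.17 SE, adjusted p = 0.337, and 0.18 without DMSO replicate 1).

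Of the 15 demethylases tested, 1 was higher and 2 lower with all libraries, at a median log2 fold change of -0.092, and 3 were higher and 6 lower without DMSO replicate 1, at a median of -0.25. The shares of 6.67% higher and 13.3% lower were near the 9.07% and 13.9% of all genes tested. Without that library the 20% higher was near the background of 22.5%, and the 40% lower was above that of 23.5%. For the 17 methyltransferases and SETD proteins the numbers were 2 and 6 (median -0.46), and 2 and 12 without that library (median -0.57). Those are 11.8% higher and 35.3% lower with all libraries and 11.8% and 70.6% without it, beside the same backgrounds. The difference between the 2 classes was not tested.

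None of the 4 H3K4 demethylases was called with all libraries. KDM5B, a JmjC enzyme that removes trimethyl H3K4 marks, was called lower without DMSO replicate 1. The KDM5B values were 26.8, 59.1, 67.1, 60.5 and 62 CPM in the DMSO libraries and 34.4, 25.5, 37.8, 38.5 and 53.4 CPM in the SFN libraries. Leaving out DMSO replicate 1 separated the groups, and the log2 fold change went from -0.54 ± 0.25 (SE, adjusted p = 0.144) to -0.72 ± 0.15 (SE, adjusted p = 0.00195). Its close relative KDM5A showed the opposite kind of dependence, with 163 CPM in DMSO replicate 1, 77.0 to 83.0 CPM in the other DMSO libraries and 78.9 to 103 CPM under SFN. Its fold change turned from -0.092 ± 0.20 (SE, adjusted p = 0.798) to 0.17 ± 0.088 (SE, adjusted p = 0.129) without that library, so no direction is given. KDM5A overlaps CCDC77 on the opposite strand, which was not called (0.16 ± 0.11 SE, adjusted p = 0.333). KDM1A (LSD1) and KDM1B, the flavin-dependent enzymes, were called in neither fit. KDM1A was at 87.8 CPM in DMSO replicate 1, 142 to 154 CPM in the other DMSO libraries and 119 to 142 CPM under SFN, with a 95% interval of the log2 fold change of -0.40 to 0.28, and without DMSO replicate 1 it was -0.19 ± 0.077 (SE, adjusted p = 0.0622). KDM1B was at 14.4 to 34.9 CPM under DMSO and 18.1 to 38.1 CPM under SFN, with a 95% interval of -0.65 to 0.49, and -0.25 ± 0.16 (SE, adjusted p = 0.215) without DMSO replicate 1.

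The 3 genes placed with H3K36 demethylation included KDM2B (chromosome 12, 121429096 to 121581023, minus strand, GRCh38) and KDM8 (chromosome 16, 27203508 to 27221768, plus strand), both called lower. Under DMSO KDM2B measured 22.9, 32, 34.7, 32.6 and 33.7 CPM, and under SFN 15.7, 12.5, 15, 15.5 and 15 CPM. The SFN libraries spanned a narrow range well below the lowest DMSO library, the means were 31.2 ± 4.73 CPM for DMSO and 14.8 ± 1.3 CPM for SFN (SD, n = 5), and the log2 fold change was -1.08 ± 0.13 (SE, adjusted p = 1.31e-04), or -1.17 ± 0.096 (SE, adjusted p = 5.49e-07) without DMSO replicate 1. The neighbour RNF34, a ubiquitin ligase gene that overlaps KDM2B on the opposite strand, also fell (-0.63 ± 0.12 SE, adjusted p = 0.00307). It was at 42 to 61.7 CPM under DMSO and 33.3 to 38.4 CPM under SFN, and without known strand the reads of the 2 genes may not be separable.

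KDM8 stood at 2.49, 1.87, 1.73, 2.65 and 2.25 CPM in DMSO replicates 1 to 5 and at 0.894, 0.0863, 1.27, 0.27 and 0.424 CPM in SFN replicates 1 to 5. KDM8 rested on few reads, 31 to 44 counts per DMSO library and 1 to 17 per SFN library, and its groups did not overlap. The means were 2.2 ± 0.393 CPM for DMSO and 0.588 ± 0.483 CPM for SFN (SD, n = 5), and the log2 fold change was -1.86 ± 0.45 (SE, adjusted p = 0.0109), with a 95% interval of -2.9 to -0.82. Without DMSO replicate 1 it was -1.81 ± 0.43 (SE, adjusted p = 0.00395). KDM2A, the paralog of KDM2B, was called in neither fit (0.26 ± 0.15 SE, adjusted p = 0.252, and 0.14 without DMSO replicate 1). With the trend with transcript length removed KDM2A was called higher, at 0.39 (adjusted p = 0.00367), the 1 of 22 alternative settings that called it. The differences between the paralogs' fold changes were not tested.

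**Figure D3:**
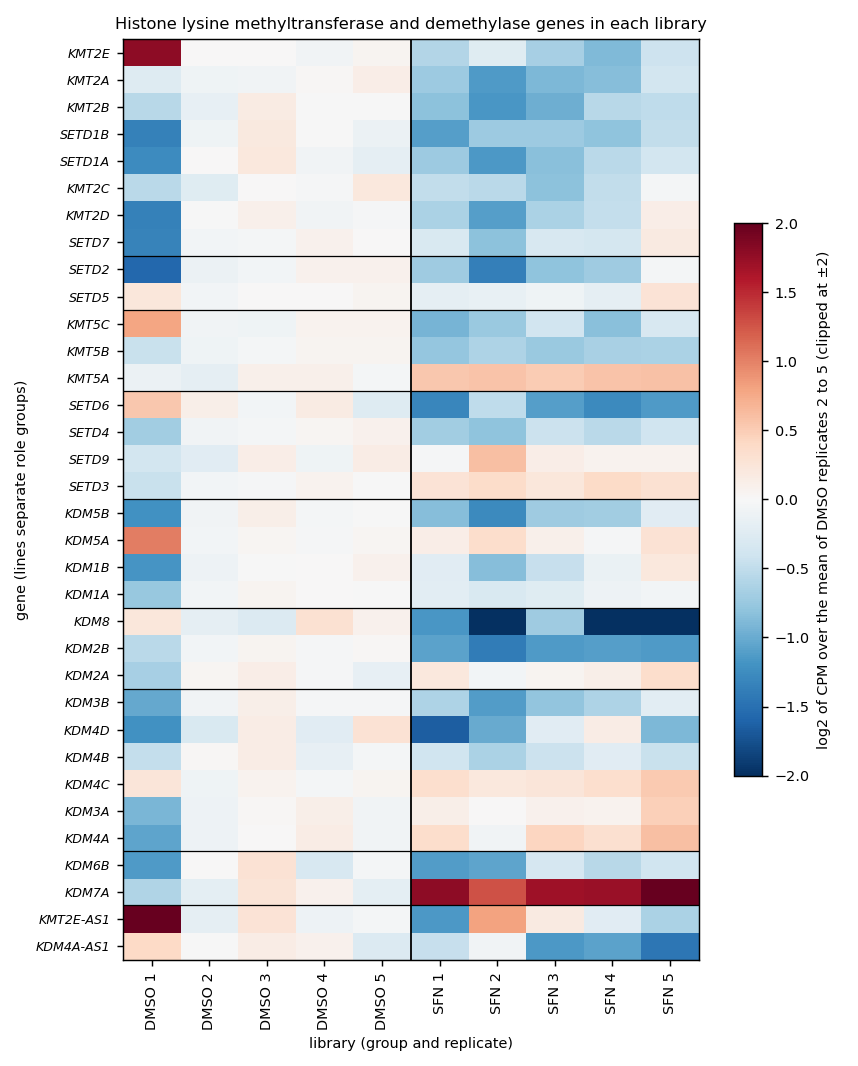
log2 ratio of each gene's CPM in each library (columns) to its mean over DMSO replicates 2 to 5, with rows grouped by role, red above and blue below that mean, and colours clipped at 2 log2 units. The first column, DMSO replicate 1, is blue for most genes and dark red for KMT2E and KMT2E-AS1, and the KDM7A row is red in all 5 SFN columns.

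Of the 6 H3K9 demethylases in the table that were tested, none was called with all libraries, and 2 were called higher and 2 lower without DMSO replicate 1. That is 33.3% in each direction, beside 22.5% higher and 23.5% lower among all genes tested in that fit. The falls were in KDM3B and KDM4B. In replicate order, KDM3B was at 35.5, 69.1, 78.2, 70.8 and 70.7 CPM under DMSO and 47.1, 33.1, 41.9, 47.2 and 62.3 CPM under SFN. The KDM4B values were 14.6, 20.8, 22.6, 18.3 and 19.9 CPM in the DMSO libraries and 15.4, 13.1, 15.2, 17.4 and 15 CPM in the SFN libraries. In both genes the SFN libraries lay below DMSO replicates 2 to 5 and on both sides of DMSO replicate 1. KDM3B, which removes mono- and dimethyl H3K9, had a log2 fold change of -0.48 ± 0.22 (SE, adjusted p = 0.135), and -0.64 ± 0.14 (SE, adjusted p = 0.00201) without that library. For KDM4B, which acts on trimethyl H3K9, it was -0.34 ± 0.13 (SE, adjusted p = 0.0933), and -0.43 ± 0.11 (SE, adjusted p = 0.00575) without it.

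KDM4C and KDM4A, paralogs of KDM4B with the same substrate, had fold changes in the other direction. Under DMSO KDM4C measured 25.5, 20.2, 22.7, 20.8 and 22.3 CPM, and under SFN 27.2, 24.9, 25.5, 27.2 and 30.8 CPM. KDM4A stood at 12.3, 23.9, 25.8, 28.6 and 24.4 CPM in DMSO replicates 1 to 5 and at 32.8, 24.3, 34.7, 32.1 and 38.8 CPM in SFN replicates 1 to 5. The KDM4C groups were separated once DMSO replicate 1 was left out, and those of KDM4A still overlapped. KDM4C had a log2 fold change of 0.28 ± 0.11 (SE, adjusted p = 0.078), and 0.33 ± 0.096 (SE, adjusted p = 0.0117) without that library. For KDM4A it was 0.50 ± 0.21 (SE, adjusted p = 0.106), and 0.34 ± 0.12 (SE, adjusted p = 0.0372) without it. KDM3A, a hypoxia-inducible paralog of KDM3B, was called in neither fit (0.30 ± 0.18 SE, adjusted p = 0.268, and 0.16 without DMSO replicate 1). KDM4D, at 0.298 to 1.42 CPM, was not called either (-0.47 ± 0.42 SE, adjusted p = 0.48, and -0.66 without DMSO replicate 1).

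Of the 2 H3K27 demethylases, 1 was called with all libraries. KDM7A, whose product has a PHD finger that reads methylated H3K4 and a JmjC domain that demethylates H3K9 and H3K27, had the largest rise of the 34. The gene spans 140084746 to 140176983 on the minus strand of chromosome 7 (GRCh38). In replicate order, KDM7A was at 1.31, 1.78, 2.46, 2.17 and 1.78 CPM under DMSO and 7.33, 5.09, 6.85, 7.02 and 8.47 CPM under SFN. These came from 21 to 44 counts per DMSO library and 59 to 123 per SFN library, with no overlap. The means were 1.9 ± 0.438 CPM for DMSO and 6.95 ± 1.22 CPM for SFN (SD, n = 5), a 3.66-fold difference, and the log2 fold change was 1.87 ± 0.20 (SE, adjusted p = 5.48e-05), with a 95% interval of 1.4 to 2.34. Without DMSO replicate 1 it was 1.77 ± 0.19 (SE, adjusted p = 5.32e-06). It was called in all 22 alternative settings and was higher than 98.9% of all genes tested by fold change. Its divergent transcript KDM7A-DT starts 278 bases away and had 1 to 10 counts per library under DMSO and 5 to 13 under SFN, too few to be tested.

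KDM6B (JMJD3), which removes trimethyl H3K27 and is known as an inducible gene in inflammation, was not higher. The KDM6B values were 2.37, 5.33, 6.54, 4.22 and 5.15 CPM in the DMSO libraries and 2.38, 2.5, 4.17, 3.58 and 4.02 CPM in the SFN libraries. DMSO replicates 2 to 5 were all above the SFN libraries, whereas DMSO replicate 1 was the lowest of all 10. Its log2 fold change was -0.51 ± 0.27 (SE, adjusted p = 0.213) with all libraries and -0.68 ± 0.20 (SE, adjusted p = 0.0139) without DMSO replicate 1, so KDM6B was called lower in the second fit.

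Of the 5 rows that are not protein coding, only KDM4A-AS1, which overlaps KDM4A on the opposite strand, was called. Under DMSO KDM4A-AS1 measured 2.8, 2.1, 2.35, 2.23 and 1.72 CPM, and under SFN 1.49, 1.98, 0.894, 0.945 and 0.706 CPM. The groups overlapped, and the log2 fold change was -0.90 ± 0.29 (SE, adjusted p = 0.0432), a call kept in 13 of 22 alternative settings. Without DMSO replicate 1 it was -0.82 ± 0.29 (SE, adjusted p = 0.0335). KMT2E-AS1 was not called, at -0.94 ± 0.59 (SE, adjusted p = 0.293), and -0.10 ± 0.38 (SE, adjusted p = 0.844) without DMSO replicate 1. KDM5C-IT1 had at most 5 counts in any library and, like KDM7A-DT and KMT5AP1, was not tested.

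Since the libraries differed in slope with transcript length, DMSO replicate 1 most of all, the fold changes were set beside length. The other DMSO libraries had slopes of 0.0872 to 0.148 and the SFN libraries slopes of -0.183 to 0.109. The slopes were not computed again without DMSO replicate 1. Across the 32 protein-coding genes, whose canonical transcripts spanned 1396 to 20635 bases, the log2 fold change and log2 length had a Pearson r of -0.037 and a Spearman rho of -0.16, and -0.052 and -0.19 without DMSO replicate 1. These are descriptions across genes that share the same 10 libraries. When a fitted trend with transcript length was removed from every library, 6 of the 34 genes were higher and 8 lower, where 13.2% and 15.5% of all genes tested were called in these directions, and the median log2 fold change was -0.32. That fit used all 10 libraries, and the trend was not removed from the fit without DMSO replicate 1.

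Genes of the same chemistry outside the name rule were read from 5 lists of related genes. Of 75 listed genes 74 were in the table and 68 were tested, with 3 higher and 17 lower in SFN, or 4.41% and 25.0%, beside the 9.07% and 13.9% of all genes tested given above. Without DMSO replicate 1 the numbers were 7 and 37, where 22.5% and 23.5% of all genes were called. The lists were chosen with earlier results of these data known, so the counts are a description.

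Of 19 other lysine methyltransferases tested, 6 were lower and none higher, with 13 not called and a median log2 fold change of -0.41. With DMSO replicate 1 left out, 14 were lower and 1 higher, SMYD3 (0.51 ± 0.14 SE, adjusted p = 0.00817), and the median was -0.53. The shares lower were 31.6% and 73.7%, beside 13.9% and 23.5% of all genes tested in these fits. The share higher in the second fit was 5.26%, beside 22.5%. With all libraries the largest falls were in EHMT2 (G9a), which dimethylates H3K9, in DOT1L, the H3K79 methyltransferase, and in SMYD4, but EHMT2 ranked first only with DMSO replicate 1 included. EHMT2 was at 51.3 to 144 CPM under DMSO and 36.4 to 43.2 under SFN, with the 144 CPM in DMSO replicate 1, and its log2 fold change was -0.97 ± 0.26 (SE, adjusted p = 0.0169), or -0.62 ± 0.096 (SE, adjusted p = 1.63e-04) without that library. DOT1L was at 16.6 to 36 CPM under DMSO and 12.9 to 18.0 under SFN, with -0.95 ± 0.20 (SE, adjusted p = 0.00522), or -1.12 ± 0.10 (SE, adjusted p = 1.94e-06) without that library. SMYD4 was at 13.8 to 17.5 CPM under DMSO and 6.02 to 8.40 under SFN, with -0.95 ± 0.13 (SE, adjusted p = 2.73e-04), or -0.98 ± 0.13 (SE, adjusted p = 3.74e-05) without it.

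The JmjC relatives held the largest changes of all 5 lists, in both directions: 2 of 11 were higher and 4 lower, and 2 were higher and 5 lower without DMSO replicate 1. With all libraries that is 18.2% and 36.4%, beside 9.07% and 13.9% of all genes tested. Without that library it is 18.2% and 45.5%, beside 22.5% and 23.5%. JMJD6, a JmjC hydroxylase of splicing and other proteins, rose (1.85 ± 0.095 SE, adjusted p = 2.78e-07) and was at 39.7 to 47.2 CPM under DMSO and 143 to 169.8 CPM under SFN. JMJD1C, a relative of the KDM3 enzymes, rose (0.81 ± 0.14 SE, adjusted p = 0.00149) and was at 135 to 156 CPM under DMSO and 202 to 347 CPM under SFN. In the other direction, JARID2, a JmjC protein without demethylase activity that belongs to a Polycomb complex, fell (-1.86 ± 0.17 SE, adjusted p = 1.59e-05) and was at 31.3 to 60.8 CPM under DMSO and 11.9 to 14.8 CPM under SFN. JMJD4 and RIOX1, which hydroxylate proteins of translation, also fell, JMJD4 by 0.94 ± 0.20 (SE, adjusted p = 0.00567) and RIOX1 by 0.86 ± 0.19 (SE, adjusted p = 0.0064) on the log2 scale. In the fit without DMSO replicate 1 the log2 fold changes were 1.87 for JMJD6, 0.77 for JMJD1C, -1.99 for JARID2, -0.89 for JMJD4 and -0.93 for RIOX1, all still called.

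In the list of COMPASS and KMT2 complex partners 3 of 14 were lower and none higher, and 9 were lower without DMSO replicate 1. The shares lower were 21.4% and 64.3%, beside 13.9% and 23.5% of all genes tested in these fits. The 3 were PAGR1 and PAXIP1, which belong to the KMT2C and KMT2D complexes, and CXXC1, the CpG-binding subunit of the SETD1 complexes. Their log2 fold changes were -0.85 ± 0.21 (SE, adjusted p = 0.0106) for PAGR1, -0.77 ± 0.16 (SE, adjusted p = 0.00409) for PAXIP1 and -0.35 ± 0.094 (SE, adjusted p = 0.0178) for CXXC1. In the list of KDM1A and CoREST partners 3 of 8 were lower and none higher, namely ZMYM3, GSE1 and RCOR3, with -0.90 ± 0.15 (SE, adjusted p = 9.41e-04) for ZMYM3, -0.85 ± 0.16 (SE, adjusted p = 0.00222) for GSE1 and -0.71 ± 0.14 (SE, adjusted p = 0.00308) for RCOR3. When DMSO replicate 1 was left out, 6 of the 8 were lower and none higher. The shares lower were 37.5% with all libraries and 75% in that fit, beside the same 13.9% and 23.5% of all genes tested. In that fit the log2 fold changes of the named partners were -0.74 for PAGR1, -0.87 for PAXIP1, -0.35 for CXXC1, -1.0 for ZMYM3, -0.97 for GSE1 and -0.76 for RCOR3, and all 6 were still called.

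Among the enzymes that supply or use the methyl donor and 2-oxoglutarate, 1 of 16 was higher, 1 was lower and 14 were not called. That is 6.25% in each direction, beside 9.07% higher and 13.9% lower among all genes tested. Leaving out DMSO replicate 1 gave 4 higher and 3 lower, and the newly called were MAT2B, AHCY and IDH2, higher, and MTR and MTRR, lower. Those are 25% and 18.75%, near the 22.5% and 23.5% of all genes tested in that fit. MAT2A, which makes S-adenosylmethionine, was at 152 to 279 CPM under DMSO and 124 to 172 under SFN (-0.73 ± 0.17 SE, adjusted p = 0.00799, and -0.86 without DMSO replicate 1), with DMSO replicate 1 the lowest DMSO library. NNMT, which spends S-adenosylmethionine on nicotinamide, was at 5.54 to 14.1 CPM under DMSO and 12.5 to 21.5 under SFN (1.04 ± 0.26 SE, adjusted p = 0.014, and 1.35 without DMSO replicate 1), with DMSO replicate 1 the highest DMSO library. The median of the list was 0.018 with all libraries and -0.052 without it.

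**Figure D4:**
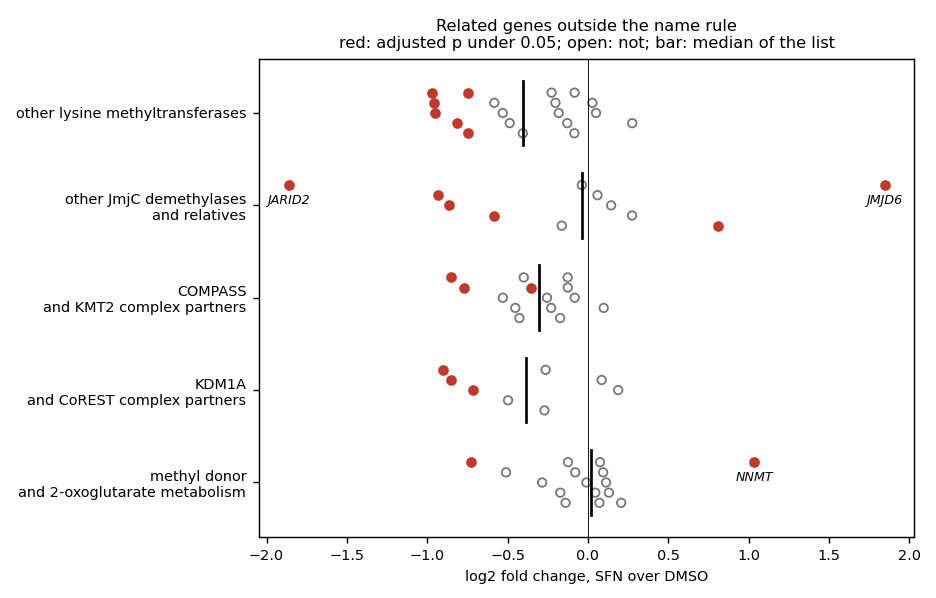
log2 fold change (SFN over DMSO) of the 68 related genes tested, one point per gene in 5 lists, with red points at an adjusted p under 0.05 and a black bar at each list's median. JMJD6 lies at 1.85 and JARID2 at -1.86, the extremes of the 5 lists, and the median of the methyl donor list is nearest 0.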

How the data were processed

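RNA of RPE-1 cells after 4 h in DMSO or in SFN (5 libraries each) was sequenced by the authors with Lexogen QuantSeq and aligned with the Bluebee pipeline. The authors deposited the raw counts of each Ensembl gene without normalizing them. The submitters' processing notes name FastQC, STAR, featureCounts, edgeR and the GRCh38 build. The annotation release, the strand setting and any use of molecular identifiers are not given in the sources used here.

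Samples were grouped by their labelled treatment. Genes were filtered with filterByExpr, counts were scaled by TMM, and the 2 treatments were tested for a difference with glmQLFit and glmQLFTest (edgeR 4.0.16, R 4.3.3) and Benjamini-Hochberg adjustment over all genes tested and a limit of 0.05. Standard errors are the absolute log2 fold change over the square root of F, and 95% intervals use a t distribution with 8 degrees of freedom. The study's mixed model with repeated measures was not repeated, since its terms are not defined, and limma-voom on quantile-normalized values (limma 3.58.1) is the nearest alternative; DESeq2 1.42.0, other scalings, filters, sample quality weights, a replicate block, a length correction and leaving out each library were also run. Scripts were tested on simulated data.

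Genes were named by rule: every matching row, with values in every library for those called with all libraries or without DMSO replicate 1, and of the related lists at most 3 called genes in each direction. The rows and lists were chosen with earlier results of these data known, among them that DMSO replicate 1 stands apart. Gene positions and transcript lengths are from GENCODE 44 (28145 of 28380 identifiers matched), and 46 rows had no symbol. Libraries of 12375860 to 20666692 counts limit precision for genes near 1 CPM, and intervals cover the spread between these libraries only.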

Additional observations from a re-analysis of the deposited data

Results flagged for a closer look

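Within each treatment, a gene was marked where its highest or lowest library stood so far from the next that the gap, as a share of the group's whole range, passed Dixon's critical value of 0.71 for 5 libraries. Of 68 groups of 5 examined (34 genes in each treatment), 21 passed, where chance marks about 1 in 20, or 3.4. The groups share their libraries and are not independent.

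In 16 of the 21 the library was DMSO replicate 1. It was the highest DMSO library for KDM5A (gap share 0.930), KMT2E (0.964), KMT2E-AS1 (0.916) and KMT5C (0.852). It was the lowest for KDM1A (0.825), KDM1B (0.797), KDM2B (0.776), KDM3A (0.729), KDM3B (0.787), KDM4A (0.716), KDM5B (0.802), KMT2D (0.830), SETD2 (0.805), SETD3 (0.712), SETD4 (0.753) and SETD7 (0.859).

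SFN replicate 2 was the lowest SFN library for KDM2B (0.784) and the highest for SETD6 (0.797) and SETD9 (0.787). SFN replicate 5 was the highest for KDM3A (0.797) and SETD5 (0.826). SFN replicate 2 was the SFN library with the most negative slope of level with transcript length, and SFN replicate 5 the one with the most positive, and their part in these gaps was not tested.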

How the results depend on the processing

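Over 22 alternative settings the median log2 fold change of the 34 genes stayed between -0.56 and -0.32, while the counts of calls moved more. Against 3 genes higher and 9 lower, sample quality weights in limma-voom gave 5 and 22, leaving out both DMSO replicate 1 and SFN replicate 2 (chosen after seeing the data) gave 5 and 19, removing a trend with transcript length gave 6 higher, and a further limit of an absolute log2 fold change above 1 gave 1 and 4. For the related genes, against 3 higher and 17 lower, the weights gave 10 and 38, leaving out both libraries gave 6 and 37, and the limit left 1 lower. Leaving out 1 library at a time gave 2 to 5 higher and 6 to 19 lower for the 34 genes, and 3 to 7 and 16 to 37 for the related genes, with the upper ends all without DMSO replicate 1. Without that library or with the weights, more of all genes tested were called as well (3058 higher and 3193 lower, and 3874 and 4041).

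Of 747 gene and setting pairs, 670 kept direction and call, 46 gained a call, 25 lost one and 6 turned direction. The calls lost were of KDM4A-AS1, KMT2E, KMT5C and SETD3. KMT2E lost its call in 8 settings, among them without any 1 of the SFN libraries. The turns were in genes not called: KDM1B, which ranged from -0.25 (without DMSO replicate 1) to 0.041 (without SFN replicate 2) when 1 library was left out, KDM5A, from -0.17 (without DMSO replicate 2) to 0.17 (without DMSO replicate 1), and SETD7, from -0.29 (without DMSO replicate 1) to 0.0043 (without SFN replicate 2). KDM5A was also at 0.11 with the weights and 0.13 without both libraries, and SETD7 at 0.037 with the length trend removed. The causes were not tested.

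Same-numbered DMSO and SFN deviations correlated at 0.039, -0.27, -0.060, 0.031 and 0.48, and only replicate 5 matched its own number best. SFN replicate 5 was the best match of DMSO replicates 2 to 5 alike, so these correlations cannot decide whether replicate numbers pair the libraries. With a replicate block 2 of the 34 genes were higher and 6 lower, and KDM4A-AS1, KMT2E, KMT5C and SETD3 lost their calls. KDM8, KDM4D and KDM4A-AS1 rest on few counts, which limits the precision of their fold changes.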
